A study of Mus musculus with 36 samples.

Results

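Granulocyte-macrophage progenitors (GMP) of the bone marrow were compared after OMV-SIRP and after phosphate-buffered saline (PBS) by RNA sequencing, with 3 libraries in each group, 6 of the 36 libraries of the series. The groups were taken from the sample labels, and the comparison ran across all genes, without any choice by measured values. OMV stands for outer membrane vesicle, a small particle that bacteria shed from their outer membrane, and the series title describes engineered vesicle hybrids that act on macrophages. The labels do not spell out SIRP, OMV-SIRP or OMV-SIRP-G, the second vesicle preparation. All groups used here came from bone marrow of wild-type (WT) mice: GMP after OMV-SIRP, GMP after OMV-SIRP-G, monocytes after OMV-SIRP, GMP after PBS and monocytes after PBS. Age, dose, route and time are not given in the labels, and the design text says that GMP of 3 samples per group were pooled, without saying whether the pools or their members were sequenced. Whether the 3 libraries of a group are different animals is not stated, and p-values cover only the spread among these libraries, which may be technical.

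GMP are the marrow cells from which neutrophils, monocytes and, in part, eosinophils, basophils and mast cells arise. A cell on the neutrophil path makes its granules in order. It fills primary granules with myeloperoxidase and serine proteases while it still divides, then secondary granules with lactoferrin and cathelicidin as division ends, and then tertiary granules with gelatinase. Surface receptors for chemokines and bacterial peptides come last, when the cell leaves the marrow. Vesicles of bacteria carry lipopolysaccharide and other ligands of Toll-like receptors, and marrow progenitors can sense such ligands directly or through cytokines.

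The markers that define GMP were present in all 6 libraries, and so were transcripts of much later granulocytes. Kit, the stem cell factor receptor by which progenitors are sorted, averaged 20.7 ± 0.546 FPKM after OMV-SIRP and 23.6 ± 1.14 FPKM after PBS (mean ± SD, n = 3 each, here and below), against 0.862 ± 0.142 and 1.10 ± 0.326 FPKM in OMV-SIRP and PBS monocytes of the same table. FPKM are fragments per kilobase of gene length, scaled to library size, as deposited. The myeloperoxidase gene Mpo stood at 1448 ± 18.4 FPKM after OMV-SIRP and 1514 ± 91.4 FPKM after PBS, against 23.7 ± 2.67 and 189.6 ± 66.3 FPKM in OMV-SIRP and PBS monocytes. The gate genes Cd34, Fcgr3 and Fcgr2b were not low in monocytes. In the same order, Cd34 averaged 18.7 ± 1.56 and 16.8 ± 1.63 FPKM in GMP, against 19.6 ± 1.29 and 11.8 ± 1.15 FPKM in monocytes. Fcgr3 averaged 216 ± 2.51 and 223 ± 32.5 FPKM, against 168 ± 15.3 and 251 ± 70.7 FPKM. Fcgr2b averaged 31.7 ± 0.415 and 36.2 ± 0.675 FPKM, against 44.5 ± 2.13 and 69.0 ± 1.96 FPKM. Ly6a (Sca-1) and Il7r, which GMP lack by definition, averaged 1.07 ± 0.398 and 1.64 ± 0.0315 FPKM after OMV-SIRP and 1.69 ± 0.508 and 2.12 ± 0.200 FPKM after PBS. Yet Ngp, a secondary granule gene of later neutrophil precursors, reached 12135 ± 368 FPKM after OMV-SIRP and 6784 ± 1034 FPKM after PBS. The eosinophil granule gene Prg2 stood at 2244 ± 160.2 FPKM after OMV-SIRP and 3134 ± 500.3 FPKM after PBS. The labels name these cells GMP in the title and bone marrow cells in the cell type field. In such bulk libraries, fewer cells of a type and less RNA per cell cannot be told apart.

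The OMV-SIRP libraries held 15218182 to 19822660 reads assigned to genes and the PBS libraries 15597925 to 16401796. Replicates correlated across genes at 0.985 to 0.989 after OMV-SIRP and 0.980 to 0.989 after PBS on the log2(FPKM + 1) scale. PBS 1 stood apart from the other PBS libraries, with neutrophil, eosinophil and ribosomal protein transcripts below theirs. Its median over 80 ribosomal protein genes lay 0.33 below the mean of the PBS libraries (log2), and PBS 2 and PBS 3 lay 0.11 and 0.21 above it. The 10 most abundant genes took 8.97% to 8.99% of reads after OMV-SIRP and 6.17% to 7.29% after PBS.

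Of 12287 genes tested, 18.2% passed the threshold of an adjusted p under 0.05 (limma on log2(FPKM + 1), Benjamini-Hochberg), 10.6% higher and 7.52% lower after OMV-SIRP. These shares are the background for every count of list members below, together with a median log2 change of 0.02 over all genes tested. Groups of 3 libraries did not overlap for 36.2% of genes. With a change of at least 1.2-fold required, 3.4% of genes passed. The balance of rises and falls depended on the scaling between libraries. With the values rescaled so that length-corrected levels sum to the same total in every library (TPM), the median of all genes moved to -0.17, and 479 genes were higher and 2596 lower, against 1308 and 924 with the deposited FPKM. Without PBS 1, 1340 genes were higher and 825 lower. Where leaving out 1 library moved a list's count by over 1.5 times, the counts are given with the list. A list median under TPM is therefore to be read against -0.17. "Rose" and "fell" are used of genes past the threshold, log2 changes are OMV-SIRP minus PBS and carry their standard error, and per-library values run from replicate 1 to 3.

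Most primary granule genes, the first that a neutrophil makes, did not pass. Of 16 primary granule genes, 2 rose and 1 fell, with a median log2 change of 0.02 (-0.18 under TPM, at the shift of all genes). Mpo had 1466, 1449 and 1429 FPKM after OMV-SIRP and 1470.2, 1452 and 1619 FPKM after PBS. Elane, the neutrophil elastase gene, had 2773, 2559 and 2619 FPKM after OMV-SIRP, against 2178, 2709 and 2822 FPKM after PBS. Both sets of libraries overlapped, and neither gene passed (log2 changes -0.06 ± 0.08 and 0.05 ± 0.10, adjusted p = 0.655 and 0.776). The cathepsin G gene Ctsg (-0.04 ± 0.10), Prss57 (0.07 ± 0.07), Ms4a3 (-0.20 ± 0.08) and the proteinase 3 gene Prtn3 (0.29 ± 0.11) did not pass either. The exceptions were Lyz2, a lysozyme that granules of every stage hold, which rose to 8312 ± 161 FPKM after OMV-SIRP, against 5744 ± 641 FPKM after PBS (log2 change 0.54 ± 0.10, adjusted p = 0.00611), Igfbp4, which rose by 0.20 ± 0.04, and Ctsc, the protease that activates the granule serine proteases, which fell (log2 change -0.28 ± 0.06, adjusted p = 0.00922). Primary granule rises numbered 1 without OMV-SIRP 2 and 4 on leaving out PBS 3, and falls 4 without PBS 1. Igfbp4 no longer passed without OMV-SIRP 2 (adjusted p = 0.0506).

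Most genes of the later granules rose. In the secondary and tertiary granule list 15 of 23 members rose and 2 fell, with a median of 0.75 (14 and 4, with a median of 0.55, under TPM). Ltf, the lactoferrin gene (ENSMUSG00000032496, GRCm38 chromosome 9, 111019271 to 111042767), had 2147, 2129 and 2149 FPKM after OMV-SIRP, against 1036, 1069 and 1130.4 FPKM after PBS. Every OMV-SIRP library lay above every PBS library, and the gene rose (log2 change 0.99 ± 0.07, adjusted p = 2.31e-05). Camp, which encodes the antimicrobial cathelicidin, had 3481, 3889 and 4201 FPKM after OMV-SIRP and 1793, 2419.8 and 2555 FPKM after PBS (log2 change 0.79 ± 0.13, adjusted p = 0.00388). Lcn2, which encodes the siderophore-binding lipocalin, averaged 1441 ± 17.7 FPKM after OMV-SIRP and 711 ± 105 FPKM after PBS (log2 change 1.03 ± 0.10, adjusted p = 0.000171). Ngp and Chil3, a chitinase-like protein gene, rose by 0.85 ± 0.12 and 1.00 ± 0.09. Ltb, a lymphotoxin gene that is counted in this list although it encodes no granule protein, rose by 1.05 ± 0.08. The acute-phase gene Orm1 rose by 1.03 ± 0.18. The list was not uniform, and its exceptions are named with their values known. Hp, Itgam, Fcnb and Olfm4 had log2 changes of 0.13, 0.11, 0.00 and -0.04 and did not pass, and B4galt6 and Cd63 fell, the last with an adjusted p of up to 0.084 in fits without 1 library. Later granule falls numbered 1 without any 1 library but PBS 1. The 8 markers chosen for neutrophils are mostly members of this list or of the mature neutrophil list, and so repeat these results. All rose, and they summed to 18752 to 19097 FPKM after OMV-SIRP and 8633 to 11448 FPKM after PBS. Ngp made up most of these sums, with 12135 ± 368 FPKM after OMV-SIRP and 6784 ± 1034 FPKM after PBS.

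**Figure D1:**
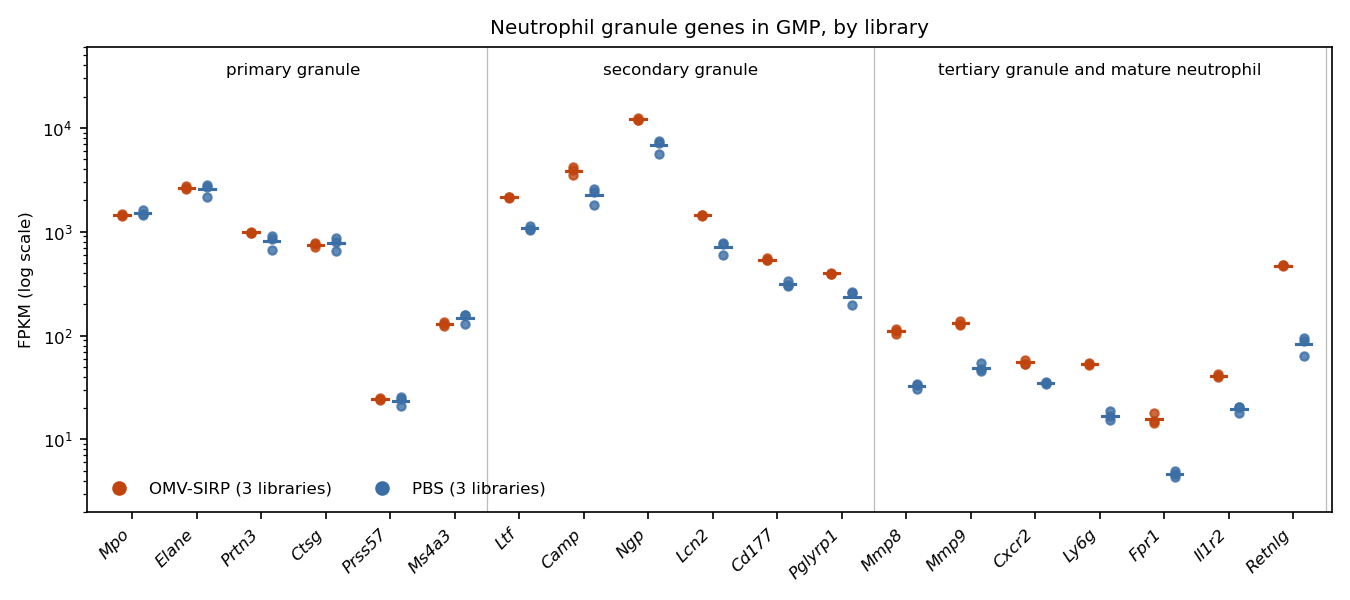
FPKM on a log axis of 19 neutrophil genes in the 3 OMV-SIRP libraries (left of each pair) and the 3 PBS libraries (right), ordered from primary granule to mature neutrophil genes, with short lines at the group means. The primary granule genes Mpo and Elane overlap between groups, and Ltf, Mmp8 and Retnlg do not.

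Among 29 tested genes of mature neutrophils, 20 rose and 2 fell, with a median of 0.58 (16 and 5, with a median of 0.38, under TPM). Il1r2, the decoy receptor for interleukin 1, had 42.7, 40.5 and 40.2 FPKM after OMV-SIRP, against 18.1, 20.6 and 20.7 FPKM after PBS (log2 change 1.02 ± 0.06, adjusted p = 9.72e-06). S100a9, a subunit of calprotectin and the most abundant transcript of the list, had 23051, 25618 and 25239.5 FPKM after OMV-SIRP and 12115, 16893 and 17136 FPKM after PBS. PBS 1 was the lowest library, the groups did not overlap, and the gene rose (log2 change 0.70 ± 0.15, adjusted p = 0.0106), as did its partner S100a8 (0.73 ± 0.17). Cxcr2, the receptor for the chemokines that draw neutrophils out of the marrow, had 58.8, 53.2 and 53.6 FPKM after OMV-SIRP and 35.8, 34.2 and 34.7 FPKM after PBS (log2 change 0.65 ± 0.05, adjusted p = 4.19e-05). Trem1 (0.58 ± 0.07), which amplifies inflammatory signals, rose too. Ccl6, a chemokine gene, was among the falls (log2 change -0.31 ± 0.08, adjusted p = 0.0255). Among 7 subunit genes of the NADPH oxidase, which makes the respiratory burst, Ncf1 rose by 0.25 ± 0.05 and Cybb by 0.25 ± 0.05. Under TPM none of the 7 was higher and 1 was lower. The Stfa genes, 4 of which were listed and 3 of which rose, are near-identical copies, and the split of their reads is uncertain. Mature neutrophil falls numbered 1 without any 1 library but PBS 1. Ccl6 no longer passed without any 1 library but PBS 1 (highest adjusted p 0.0835), S100a8 without any 1 OMV-SIRP library (highest adjusted p 0.0624), S100a9 without OMV-SIRP 2 (adjusted p = 0.0502) and Cybb without OMV-SIRP 1 or OMV-SIRP 2 (highest adjusted p 0.0603).

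Markers of other granulocyte lines went the other way. Each of 8 eosinophil markers fell, and their summed level was 2525 to 2824 FPKM after OMV-SIRP and 3773 to 4956 FPKM after PBS. Prg2 made up most of these sums, with 2244 ± 160.2 FPKM after OMV-SIRP and 3134 ± 500.3 FPKM after PBS. In the wider eosinophil list of 19 tested genes 12 fell and 1 rose, with a median of -0.85 (14 and 0, with a median of -1.20, under TPM). Epx, the eosinophil peroxidase gene, had 175, 170.0 and 173 FPKM after OMV-SIRP, against 397, 358 and 385 FPKM after PBS (log2 change -1.13 ± 0.07, adjusted p = 1.10e-05). Prg2, the major basic protein gene, had 2086, 2240.0 and 2406 FPKM after OMV-SIRP and 2582, 3262 and 3558 FPKM after PBS (log2 change -0.47 ± 0.12, adjusted p = 0.0248). Ccr3, the eotaxin receptor gene, fell to 1.22 ± 0.122 FPKM after OMV-SIRP, against 5.48 ± 0.684 FPKM after PBS (log2 change -1.55 ± 0.08, adjusted p = 5.72e-06). Cebpe, a factor that eosinophils and neutrophils share, did not pass (0.15 ± 0.07), and the single rise was Alox5, the 5-lipoxygenase gene (log2 change 0.35 ± 0.05, adjusted p = 0.000935). Eosinophil list rises numbered 2 without PBS 1. Prg2 no longer passed without OMV-SIRP 1, OMV-SIRP 2, PBS 2 or PBS 3 (highest adjusted p 0.0889).

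Mast cell and basophil genes fell in 11 of 16 cases and rose in none, with a median of -0.57 (13 and 0, with a median of -0.81, under TPM). The 5 markers chosen for these cells summed to 404 to 428 FPKM after OMV-SIRP and 740 to 906 FPKM after PBS. Prss34, a serine protease of basophils, had 252, 244 and 245 FPKM after OMV-SIRP, against 485, 575 and 619 FPKM after PBS (log2 change -1.17 ± 0.09, adjusted p = 3.87e-05). Mcpt8, the other basophil protease gene of the list, averaged 78.1 ± 6.23 FPKM after OMV-SIRP and 159.7 ± 15.1 FPKM after PBS (log2 change -1.02 ± 0.09, adjusted p = 6.97e-05). Ms4a2, the beta chain of the IgE receptor, fell by 0.86 ± 0.05, and Cd200r3 by 1.10 ± 0.06. Hdc, the histamine-forming enzyme, had 49.3 ± 0.565 FPKM after OMV-SIRP and 53.1 ± 2.42 FPKM after PBS and did not pass (-0.10 ± 0.05).

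**Figure D2:**
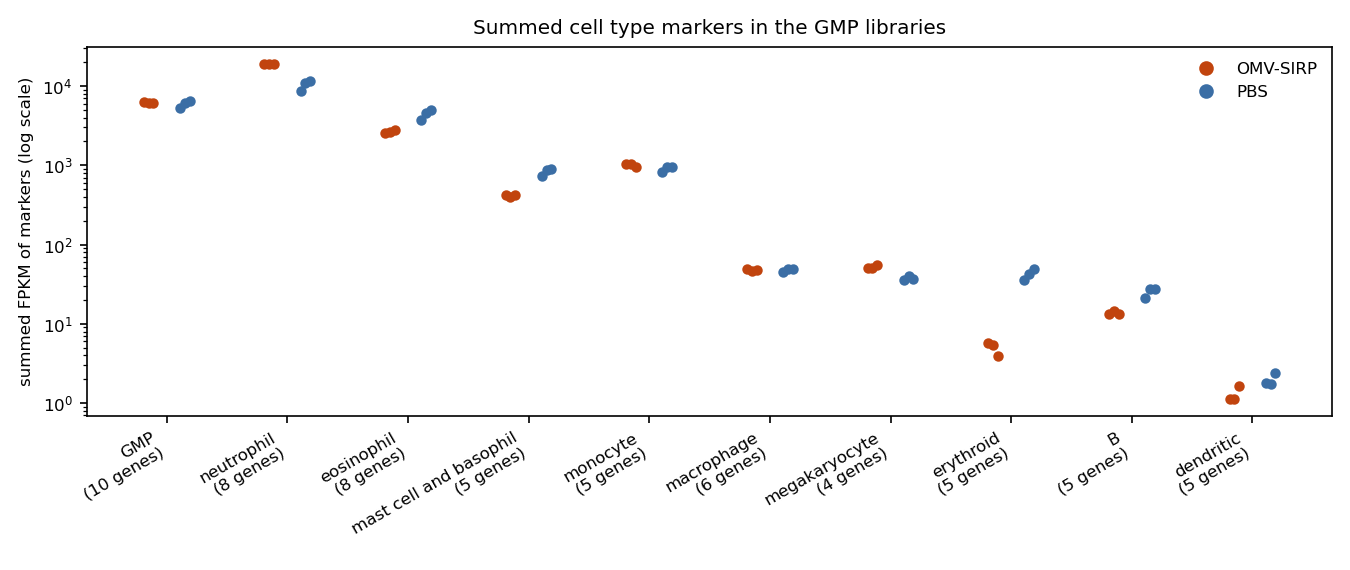
Summed FPKM on a log axis of the markers chosen for each cell type, in 3 OMV-SIRP libraries (left) and 3 PBS libraries (right). Neutrophil sums are above those of PBS, eosinophil, mast cell and basophil, erythroid and B sums are below, and the macrophage sums of about 46 to 49 FPKM overlap.

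B lineage genes were low in every library and lower after OMV-SIRP, with 10 of 11 tested members falling (11 under TPM) and a median of -1.13. Ly6d, a marker of lymphoid progenitors that commit to B cells, was covered by 0, 2 and 3 reads in the OMV-SIRP libraries, against 51, 75 and 80 reads in the PBS libraries (log2 change -2.43 ± 0.17, adjusted p = 2.76e-05). Dntt, which adds bases at antigen receptor joints, was covered by 11, 8 and 9 reads after OMV-SIRP, against 97, 96 and 94 reads after PBS (log2 change -1.44 ± 0.11, adjusted p = 4.19e-05). Spib, a transcription factor gene of lymphoid and plasmacytoid cells, was covered by 34, 47 and 42 reads after OMV-SIRP, against 189, 212 and 209 reads after PBS (log2 change -1.45 ± 0.15, adjusted p = 0.00025). The 5 B markers summed to 13.4 to 14.6 FPKM after OMV-SIRP and 21.5 to 27.3 FPKM after PBS. The T and NK markers Cd3e and Trbc2 were at 0 in all OMV-SIRP libraries, and the 4 T and NK markers together summed to 0 to 0.0770 FPKM after OMV-SIRP and 0.199 to 0.689 FPKM after PBS. Of the 4 tested members of the wider T and NK list Ccl5 rose and Tcf7 fell. T and NK genes below the filter were not tested, and more of them had fewer reads after OMV-SIRP than had more. Il2rb was covered by 19 reads over the OMV-SIRP libraries and 194 reads over the PBS libraries. In the same order, Klrd1 had 7 and 79 reads, Trbc1 7 and 47 and Gzma 1 and 29. Thy1, with 115 and 54 reads, and Cd3d, with 29 and 24, went the other way. The sums of the 5 erythroid markers were 3.92 to 5.66 FPKM after OMV-SIRP and 35.6 to 49.4 FPKM after PBS. Most of this was haemoglobin, with 3 of the 5 under 1 FPKM in either group. Hbb-bs had 2.47, 2.05 and 1.67 FPKM after OMV-SIRP and 25.2, 25.8 and 30.6 FPKM after PBS (log2 change -3.21 ± 0.18, adjusted p = 1.24e-05). The alpha globin gene Hba-a1 fell by 2.33 ± 0.25. How reads were split between the close copies of the globin genes is uncertain. In the wider erythroid list of 10 tested genes 6 fell and 2 rose (7 and 2 under TPM), and Klf1, the erythroid factor gene, was covered by 75 reads over the OMV-SIRP libraries and 73 reads over the PBS libraries. Erythroid rises numbered 1 without any 1 OMV-SIRP library. Pf4, the platelet factor 4 gene, went up (log2 change 0.93 ± 0.13, adjusted p = 0.00154), with 50.1 to 54.6 FPKM for the 4 megakaryocyte markers after OMV-SIRP and 35.3 to 40.3 FPKM after PBS. The wider megakaryocyte list of 13 tested genes held 3 rises and 1 fall, with a median of 0.16 (2 and 3 under TPM), and Itga2b, the platelet integrin gene, did not pass (-0.13 ± 0.06). Megakaryocyte falls numbered 0 without any 1 library but PBS 3. The part of these marker sums in the other results was not tested.

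The monocyte list was divided, with 8 members higher and 12 lower of 26 tested (5 and 13 under TPM). Ctss, the cathepsin S gene, rose to 113 ± 3.16 FPKM after OMV-SIRP, against 68.3 ± 6.14 FPKM after PBS (log2 change 0.72 ± 0.07, adjusted p = 9.55e-05), and Psap rose by 0.26 ± 0.06. Vcan, the versican gene of classical monocytes, fell to 1.75 ± 0.0586 FPKM after OMV-SIRP, against 4.08 ± 0.593 FPKM after PBS (log2 change -0.88 ± 0.09, adjusted p = 0.000164). Ms4a6b and Ms4a6c fell by 0.54 ± 0.06 and 0.44 ± 0.05. Ly6c2, by which inflammatory monocytes are gated, did not pass (0.21 ± 0.09). In the macrophage list 7 of 18 rose and 5 fell. Gpnmb, a lysosomal glycoprotein gene, had 31.8, 32.6 and 29.7 FPKM after OMV-SIRP, against 13.2, 13.6 and 13.2 FPKM after PBS (log2 change 1.17 ± 0.05, adjusted p = 1.49e-06). Apoe and Cd68 rose by 0.59 ± 0.08 and 0.54 ± 0.07. Of 11 dendritic cell genes Clec10a rose (log2 change 0.25 ± 0.04, adjusted p = 0.00418) and the others did not pass. Macrophage falls numbered 2 without OMV-SIRP 2 and 3 on leaving out OMV-SIRP 1, OMV-SIRP 3 or PBS 2. Dendritic cell falls numbered 1 without PBS 1. Psap no longer passed without any 1 OMV-SIRP library or PBS 2 (highest adjusted p 0.0707).

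Most genes of the factors that set the granulocyte and monocyte fates did not pass. Of 33 myeloid transcription factor genes, 6 rose and 5 fell, with a median of -0.06 (0 and 14, with a median of -0.26, under TPM). Cebpa, which starts granulocyte commitment, had 183, 185 and 192 FPKM after OMV-SIRP and 223, 197 and 211 FPKM after PBS and did not pass (log2 change -0.17 ± 0.06, adjusted p = 0.0843). Spi1 (PU.1) had 170.2, 178 and 181 FPKM after OMV-SIRP and 175, 183 and 197 FPKM after PBS (log2 change -0.07 ± 0.06, adjusted p = 0.478). The 95% intervals of these changes, unadjusted, ran from -0.31 to -0.03 for Cebpa and from -0.20 to 0.06 for Spi1. Cebpb, Irf8, Runx1, Fli1 and Stat3 had changes between -0.11 and 0.05 and did not pass. Klf4, a factor of monocyte differentiation, had 4.41, 4.37 and 4.97 FPKM after OMV-SIRP, against 8.43, 8.60 and 6.84 FPKM after PBS, without overlap (log2 change -0.68 ± 0.09, adjusted p = 0.00094). Zeb2 (-0.38 ± 0.05), Irf5 (-0.34 ± 0.06) and Gfi1 (-0.27 ± 0.05) were lower as well. The rises were Nfil3 (log2 change 0.41 ± 0.05, adjusted p = 0.000537), Egr1 (0.37 ± 0.11), Bcl6 (0.28 ± 0.06), Lmo4 (0.22 ± 0.04), Nfe2 (0.22 ± 0.06) and Bhlhe40 (0.17 ± 0.05). Bhlhe40 had the opposite sign under TPM (-0.02), and none of the 6 was called higher there. Myeloid factor rises numbered 3 without any 1 OMV-SIRP library or PBS 2. Egr1 no longer passed without any 1 library but PBS 1 (highest adjusted p 0.12), Nfe2 without any 1 OMV-SIRP library or PBS 2 (highest adjusted p 0.0782) and Bhlhe40 without any 1 library but PBS 1 (highest adjusted p 0.115).

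Among 21 genes of stem and early progenitor factors 4 rose and 7 fell (1 and 10 under TPM). The falls were led by the factors of the erythroid, mast cell and basophil lines. Gata1 had 2.92, 3.17 and 3.21 FPKM after OMV-SIRP and 5.72, 7.003 and 6.70 FPKM after PBS (log2 change -0.86 ± 0.09, adjusted p = 0.000201). Gfi1b fell by 0.64 ± 0.11, Ikzf2 by 0.50 ± 0.08, Ikzf1 by 0.28 ± 0.05 and Tal1 by 0.23 ± 0.06. Hoxa7 (log2 change 0.58 ± 0.11, adjusted p = 0.00651), Hoxa9 (0.37 ± 0.08) and Erg (0.34 ± 0.08), genes of stem and early myeloid cells, rose, and Lyl1 rose by 0.18 ± 0.05 with the opposite sign under TPM (-0.02). Myb, Myc, Lmo2, Cd34 and Flt3 did not pass, and Kit fell by 0.18 ± 0.05 (adjusted p = 0.0384). Stem factor rises numbered 2 without OMV-SIRP 2, OMV-SIRP 3 or PBS 2. Erg no longer passed without OMV-SIRP 1, OMV-SIRP 2 or PBS 2 (highest adjusted p 0.0545), Hoxa9 without OMV-SIRP 3 (adjusted p = 0.0575), Lyl1 without OMV-SIRP 2, OMV-SIRP 3, PBS 2 or PBS 3 (highest adjusted p 0.111), Tal1 without OMV-SIRP 1, OMV-SIRP 3 or PBS 3 (highest adjusted p 0.0747) and Kit without any 1 library but PBS 3 (highest adjusted p 0.12).

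**Figure D3:**
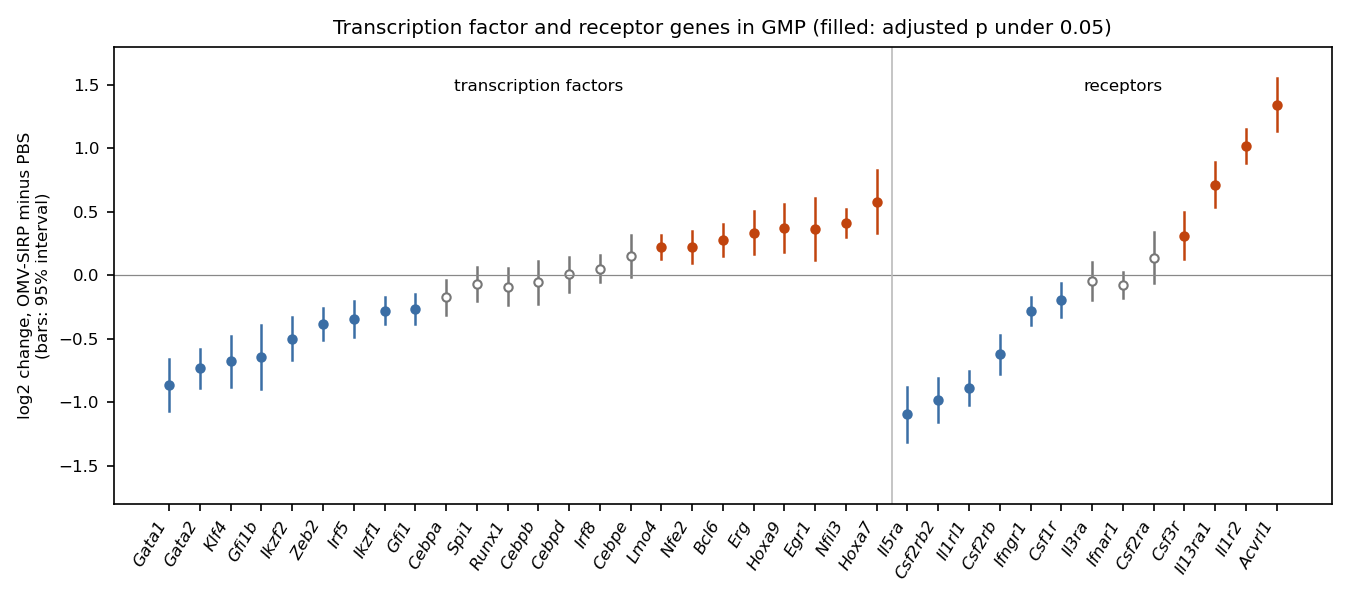
Log2 change (OMV-SIRP minus PBS) with its 95% interval for 24 transcription factor genes and 13 receptor genes, filled where the adjusted p was under 0.05. Gata1, Gata2 and Klf4 lie lowest among the factors, Cebpa, Spi1 and Irf8 are unfilled, and Il5ra and Acvrl1 lie at the ends of the receptors.

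Receptor genes fell more often than they rose, with 12 of 31 lower and 4 higher (14 and 3 under TPM). Il5ra, the receptor of the eosinophil growth factor interleukin 5, was at 1.39, 1.35 and 0.905 FPKM after OMV-SIRP and 3.59, 4.08 and 3.47 FPKM after PBS (log2 change -1.09 ± 0.10, adjusted p = 8.71e-05). Csf2rb, the beta chain through which interleukins 3 and 5 and GM-CSF signal, and Csf2rb2, its mouse copy for interleukin 3, averaged 66.2 ± 2.75 and 22.96 ± 0.518 FPKM after OMV-SIRP, against 103 ± 9.62 and 46.6 ± 5.82 FPKM after PBS. Their log2 changes were -0.62 ± 0.07 and -0.98 ± 0.08 (adjusted p = 0.000292 and 4.24e-05), and the split of reads between these copies is uncertain. The alpha chain genes Csf2ra and Il3ra did not pass (0.14 ± 0.09 and -0.05 ± 0.07). Il1rl1, the receptor of interleukin 33, fell by 0.89 ± 0.06. Csf3r, the receptor of the neutrophil growth factor G-CSF, had 138, 141 and 135 FPKM after OMV-SIRP, against 129, 102 and 104 FPKM after PBS, and rose (log2 change 0.31 ± 0.08, adjusted p = 0.0308). Csf1r, its macrophage counterpart, fell (log2 change -0.20 ± 0.06, adjusted p = 0.0489). Il13ra1 rose (log2 change 0.71 ± 0.08, adjusted p = 0.000306), whereas the interferon receptor genes Ifnar1 and Ifnar2 did not pass (-0.07 ± 0.05 and -0.05 ± 0.05) and Ifngr1 fell by 0.28 ± 0.05. Receptor falls numbered 7 without OMV-SIRP 3. Csf3r no longer passed without any 1 library but PBS 1 (highest adjusted p 0.0987) and Csf1r without any 1 library (highest adjusted p 0.145).

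All 26 genes of the G2 and M phases of the cell cycle rose, with changes of 0.22 to 0.80 and a median of 0.55. Under TPM 19 of the 26 were called, all of them higher, with a median of 0.37. Top2a, the topoisomerase that untangles chromosomes (ENSMUSG00000020914, GRCm38 chromosome 11, 98992943 to 99024189), had 63.1, 60.1 and 59.6 FPKM after OMV-SIRP, against 41.6, 39.4 and 39.02 FPKM after PBS (log2 change 0.59 ± 0.04, adjusted p = 3.30e-05). Kif11, a motor of the mitotic spindle (ENSMUSG00000012443, GRCm38 chromosome 19, 37376403 to 37421859), had 26.3, 26.6 and 25.1 FPKM after OMV-SIRP and 17.7, 17.5 and 16.9 FPKM after PBS (log2 change 0.56 ± 0.04, adjusted p = 3.32e-05). Mki67, the proliferation antigen Ki-67, averaged 68 ± 1.46 FPKM after OMV-SIRP and 50.1 ± 5.10 FPKM after PBS (log2 change 0.44 ± 0.07, adjusted p = 0.00194). Bub1, a spindle checkpoint kinase gene, had the largest change of the list (log2 change 0.80 ± 0.06, adjusted p = 4.05e-05). Genes of the S phase moved less, with 8 of 26 higher, none lower and a median of 0.11 (2 higher and 5 lower, with a median of -0.08, under TPM). Rrm2, the ribonucleotide reductase subunit, led them, at 63.7 ± 3.02 FPKM after OMV-SIRP and 41.7 ± 1.37 FPKM after PBS (log2 change 0.60 ± 0.05, adjusted p = 4.69e-05). The replication helicase gene Mcm6 and the clamp gene Pcna did not pass (-0.07 ± 0.05 and 0.16 ± 0.06). Of 14 inhibitors of the cycle, 6 rose and none fell, among them Cdkn1a (p21, log2 change 0.54 ± 0.05, adjusted p = 9.08e-05), Cdkn1b (p27, 0.48 ± 0.05), Cdkn2c (0.43 ± 0.05) and Cdkn2d (0.41 ± 0.06). The inhibitor list had a median of 0.15 (4 higher and none lower, with a median of -0.04, under TPM). S phase falls numbered 1 without PBS 2.

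Promoters of G2 and M phase genes are known for the CHR element, bound by complexes that regulate these genes over the cell cycle. The letters TTTGAA, on either strand, stood in the window from 250 bases before to 50 after the start in 16 of 21 list genes with a RefSeq window (76.2%), against 14.7% of the 8525 tested genes with one and 17.9% of all 32851 windows. The 2 windows shown are those of the genes described above (RefSeq, GRCm38.p6), 5′ to 3′ in the direction of the gene, with CHR matches in capitals. Top2a lies on the minus strand at chr11:99024140-99024439 and Kif11 on the plus strand at chr19:37376132-37376431. A match is a description of the letters and not of binding.
Top2a: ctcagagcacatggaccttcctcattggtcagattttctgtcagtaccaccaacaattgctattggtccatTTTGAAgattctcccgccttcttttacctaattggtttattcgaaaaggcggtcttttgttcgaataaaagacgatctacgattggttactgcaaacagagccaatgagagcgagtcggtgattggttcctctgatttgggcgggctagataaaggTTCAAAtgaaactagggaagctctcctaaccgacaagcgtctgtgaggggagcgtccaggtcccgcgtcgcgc
Kif11: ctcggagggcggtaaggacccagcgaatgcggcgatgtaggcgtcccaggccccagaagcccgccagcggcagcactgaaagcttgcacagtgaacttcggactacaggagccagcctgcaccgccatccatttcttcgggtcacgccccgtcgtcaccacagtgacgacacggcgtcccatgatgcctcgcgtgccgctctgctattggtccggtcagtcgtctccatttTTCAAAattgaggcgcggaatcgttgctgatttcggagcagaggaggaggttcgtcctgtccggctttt

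The hypoxia response list rose almost as a whole, with 26 of 28 tested members higher, none lower and a median of 0.57 (19 higher and 2 lower, with a median of 0.38, under TPM). Egln3, an oxygen-sensing prolyl hydroxylase that is itself induced by low oxygen (ENSMUSG00000035105, GRCm38 chromosome 12, 54178981 to 54203860), had 147, 147 and 143 FPKM after OMV-SIRP, against 71.4, 75.7 and 76.7 FPKM after PBS (log2 change 0.96 ± 0.05, adjusted p = 2.88e-06). Bnip3, which directs mitochondria to autophagy (ENSMUSG00000078566, GRCm38 chromosome 7, 138890836 to 138909519), had 101, 98.9 and 96.2 FPKM after OMV-SIRP, against 48.9, 56.04 and 53.4 FPKM after PBS (log2 change 0.89 ± 0.05, adjusted p = 1.03e-05). Neither gene overlapped between groups. Ankrd37 (0.99 ± 0.07), Fam162a (0.93 ± 0.10), Mif (0.88 ± 0.14) and Ddit4 (0.74 ± 0.07) also rose. Vegfa, the vascular growth factor, averaged 72.4 ± 1.98 FPKM after OMV-SIRP and 52.9 ± 4.59 FPKM after PBS (log2 change 0.45 ± 0.06, adjusted p = 0.00134). The 2 members that did not pass were Hif1a, whose protein and not its transcript is regulated by oxygen (-0.10 ± 0.06), and Plin2 (-0.04 ± 0.06).

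The core hypoxia element, ACGTG or GCGTG on either strand, stood in the windows of 19 of the 20 risen list genes that had one (95%), against 68.1% of tested genes with a window and 43.8% of all windows, so that it is common in the promoters of expressed genes. The windows of the genes described in full are printed with its matches in capitals. Egln3 lies on the minus strand at chr12:54203825-54204124 and Bnip3 on the minus strand at chr7:138909457-138909756, where some matches overlap.
Egln3: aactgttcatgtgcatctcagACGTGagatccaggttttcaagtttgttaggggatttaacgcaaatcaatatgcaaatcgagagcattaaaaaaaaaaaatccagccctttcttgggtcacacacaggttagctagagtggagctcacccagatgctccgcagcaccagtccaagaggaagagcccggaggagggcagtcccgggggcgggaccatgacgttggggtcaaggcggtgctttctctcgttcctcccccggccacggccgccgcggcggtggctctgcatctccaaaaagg
Bnip3: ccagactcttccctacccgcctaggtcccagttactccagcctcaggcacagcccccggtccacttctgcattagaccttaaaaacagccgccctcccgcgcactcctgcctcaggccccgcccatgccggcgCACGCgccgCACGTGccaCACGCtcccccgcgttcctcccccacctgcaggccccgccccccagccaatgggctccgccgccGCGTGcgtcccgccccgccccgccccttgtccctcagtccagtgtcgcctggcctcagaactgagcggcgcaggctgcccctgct

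Glycolysis followed, with 21 of 27 tested genes higher, 1 lower and a median of 0.51 (16 and 1, with a median of 0.31, under TPM), and the rises covered nearly every step. The glucose transporters Slc2a1 and Slc2a3 rose by 0.85 ± 0.05 and 0.74 ± 0.04. The kinases Hk2 (0.34 ± 0.06) and Hk3 (0.26 ± 0.05) and the phosphofructokinases Pfkl (0.51 ± 0.05) and Pfkp (0.69 ± 0.04) rose at the committed steps, while Hk1 did not pass (0.11 ± 0.06). Ldha, which makes lactate, had 545, 529.6 and 525 FPKM after OMV-SIRP and 304, 354 and 378 FPKM after PBS (log2 change 0.63 ± 0.08, adjusted p = 0.000814). Slc16a3, which exports lactate, had 86.6, 88.7 and 87.4 FPKM after OMV-SIRP and 43.4, 47.7 and 52.3 FPKM after PBS (log2 change 0.86 ± 0.06, adjusted p = 3.32e-05). Slc16a1, the other lactate carrier of the list, was the single fall (log2 change -0.33 ± 0.05, adjusted p = 0.0012). Gapdh did not pass (0.49 ± 1.04).

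Few nuclear genes of mitochondria and few ribosomal protein genes passed. Of 25 genes of the tricarboxylic acid cycle 2 rose and 1 fell, with a median of 0.04 (0 and 10, with a median of -0.16, under TPM). Ogdh, the 2-oxoglutarate dehydrogenase gene, fell to 25.97 ± 0.996 FPKM after OMV-SIRP, against 35.1 ± 2.40 FPKM after PBS (log2 change -0.42 ± 0.08, adjusted p = 0.00539). Of 74 nuclear genes of the respiratory chain 2 rose (2.70%), and of 80 cytosolic ribosomal protein genes none passed. Under TPM 1 gene of the respiratory chain was higher and 8 lower, and 12 ribosomal protein genes were lower. Of 13 genes encoded by the mitochondrial genome 3 fell, mt-Nd4 by 0.30 ± 0.07, mt-Nd5 by 0.51 ± 0.06 and mt-Nd6 by 0.52 ± 0.07. PBS 1 weighed on these lists: without it the respiratory chain median moved from 0.18 to 0.06 and the ribosomal median from 0.13 to -0.02. Tricarboxylic acid cycle rises numbered 1 without any 1 library but PBS 3 and 5 on leaving out PBS 3, and falls 2 without PBS 1. Respiratory chain rises numbered 13 without PBS 3, and falls 1 without PBS 1. Ribosomal protein rises numbered 1 without PBS 2 and 2 on leaving out PBS 3, and falls 5 without PBS 1. Mitochondrially encoded falls numbered 7 without PBS 1. Ribosomal and mitochondrial genes have many processed copies in the genome, and how reads that fit several copies were counted is not given in the sources used here. mt-Nd4 no longer passed without OMV-SIRP 2, OMV-SIRP 3, PBS 2 or PBS 3 (highest adjusted p 0.0897).

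**Figure D4:**
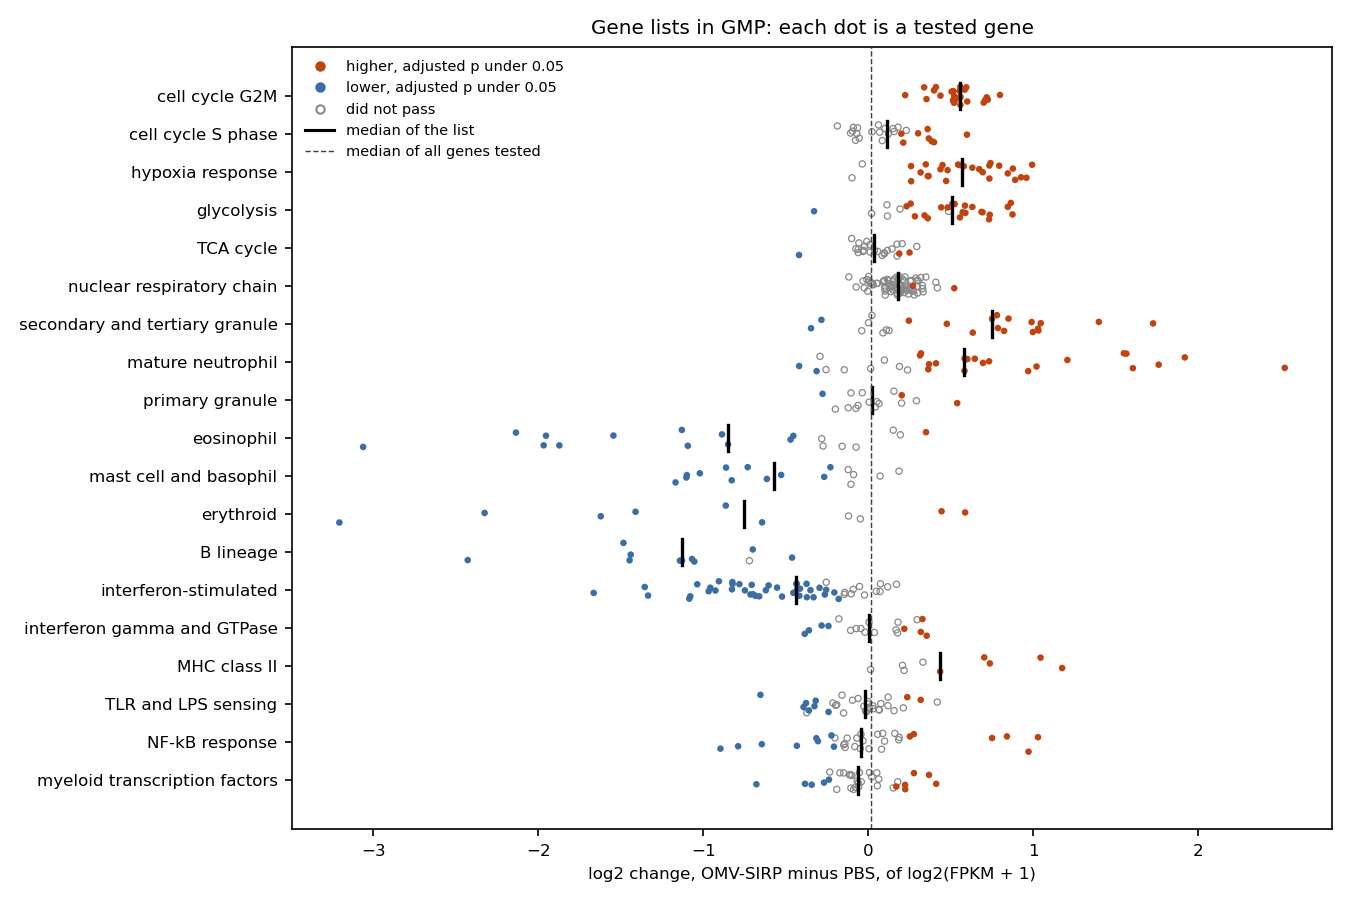
Log2 changes (OMV-SIRP minus PBS) of all tested members of 19 gene lists, coloured where they passed in either direction, with the median of each list as a black bar and the median of all genes tested, 0.02, as a dashed line. The G2M list lies wholly to the right with all 26 members past the threshold, and the interferon-stimulated list to the left with 39 of 51.

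Interferon-stimulated genes were lower, with 39 of 51 tested members falling, none rising and a median of -0.44 (43 and 0, with a median of -0.68, under TPM). Slfn5, a member of the growth-restraining Schlafen family (ENSMUSG00000054404, GRCm38 chromosome 11, 82951349 to 82964840), had 1.501, 1.54 and 1.73 FPKM after OMV-SIRP, against 8.27, 6.93 and 6.52 FPKM after PBS (log2 change -1.66 ± 0.08, adjusted p = 3.83e-06). Ifi207, one of the DNA-sensing HIN-200 family (ENSMUSG00000073490, GRCm38 chromosome 1, 173723427 to 173741747), had 2.46, 1.69 and 1.61 FPKM after OMV-SIRP, against 6.89, 6.61 and 5.77 FPKM after PBS (log2 change -1.36 ± 0.11, adjusted p = 5.59e-05). Rtp4 had 2.05 ± 0.222 FPKM after OMV-SIRP and 6.70 ± 0.306 FPKM after PBS (log2 change -1.33 ± 0.07, adjusted p = 4.71e-06). For each of these genes every OMV-SIRP library lay below every PBS library. Sensors of viral RNA fell by less, Ifih1 (MDA5) by 0.35 ± 0.05 and Ddx58 (RIG-I) by 0.30 ± 0.05. Of the factors that carry the interferon signal, Stat2 and Irf9 fell by 0.26 ± 0.08 and 0.41 ± 0.07. The abundant Ifitm3, Ly6e and Bst2 did not pass (0.05 ± 0.10, 0.07 ± 0.06 and -0.09 ± 0.10). Without PBS 1, 37 members were lower and 1 was higher. Stat2 no longer passed without any 1 library but PBS 3 (highest adjusted p 0.143). Many of these genes (Oas, Ifi200, Slfn) have close copies, between which reads may be split uncertainly.

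The interferon-stimulated response element, searched as GAAA, any 2 bases and GAAA again on either strand, stood in 18 of 29 windows of the fallen members (62.1%), against 4.02% of tested genes with a window and 3.44% of all windows. Among all tested members with a window, 20 held it, of which 18 fell, and 18 lacked it, of which 11 fell. The windows of the 2 members with the largest falls that held a match are shown with it in capitals, Slfn5 on the plus strand at chr11:82951852-82952151 and Ifi207 on the minus strand at chr1:173741760-173742059.
Slfn5: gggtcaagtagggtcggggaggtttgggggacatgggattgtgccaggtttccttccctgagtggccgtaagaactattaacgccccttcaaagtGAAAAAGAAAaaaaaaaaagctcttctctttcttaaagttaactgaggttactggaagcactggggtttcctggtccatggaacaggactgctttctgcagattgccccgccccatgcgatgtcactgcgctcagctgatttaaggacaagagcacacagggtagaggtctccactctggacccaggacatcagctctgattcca
Ifi207: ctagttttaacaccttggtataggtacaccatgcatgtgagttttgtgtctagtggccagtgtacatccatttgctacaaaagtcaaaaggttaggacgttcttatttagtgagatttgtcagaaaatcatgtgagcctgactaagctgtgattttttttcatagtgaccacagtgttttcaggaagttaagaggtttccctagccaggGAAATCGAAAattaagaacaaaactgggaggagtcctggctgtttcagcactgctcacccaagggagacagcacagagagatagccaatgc

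Genes that interferon gamma induces most were divided, and 4 of 19 rose and 4 fell, with a median of 0.00 (0 and 4, with a median of -0.20, under TPM). Irf1 rose (log2 change 0.35 ± 0.05, adjusted p = 0.00119), as did the peptide transporter Tap1 (0.22 ± 0.05) and the immunoproteasome subunit Psmb9 (0.32 ± 0.07), while Irgm1 fell (-0.36 ± 0.07). MHC class II genes, by which antigen is shown to helper T cells, rose in 5 of 9 cases with none lower and a median of 0.44 (5 and 0, with a median of 0.31, under TPM). Cd74, the invariant chain, had 30.8, 33.4 and 29.6 FPKM after OMV-SIRP, against 12.7, 14.2 and 12.98 FPKM after PBS (log2 change 1.18 ± 0.06, adjusted p = 4.71e-06). H2-Ab1 had 19.3, 19.7 and 21.7 FPKM after OMV-SIRP, against 10.5, 12.6 and 13.1 FPKM after PBS (log2 change 0.70 ± 0.08, adjusted p = 0.000381). H2-Aa and H2-Eb1 rose by 1.04 ± 0.09 and 0.74 ± 0.12 at a few FPKM. The 5 dendritic cell markers, each under 1 FPKM on average, summed to 1.13 to 1.62 FPKM after OMV-SIRP and 1.74 to 2.37 FPKM after PBS. Which cells the class II transcripts came from was not tested. Of 11 class I genes 3 rose and 2 fell, with H2-K1 and B2m not past (0.11 ± 0.06 and 0.24 ± 0.10). H2-Q6 and H2-Q7, between which the split of reads is uncertain, rose and H2-T24 fell. Interferon gamma list rises numbered 2 without OMV-SIRP 3, and falls 1 without OMV-SIRP 3 and 2 on leaving out OMV-SIRP 1. Psmb9 no longer passed without OMV-SIRP 3 (adjusted p = 0.0536).

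**Figure D5:**
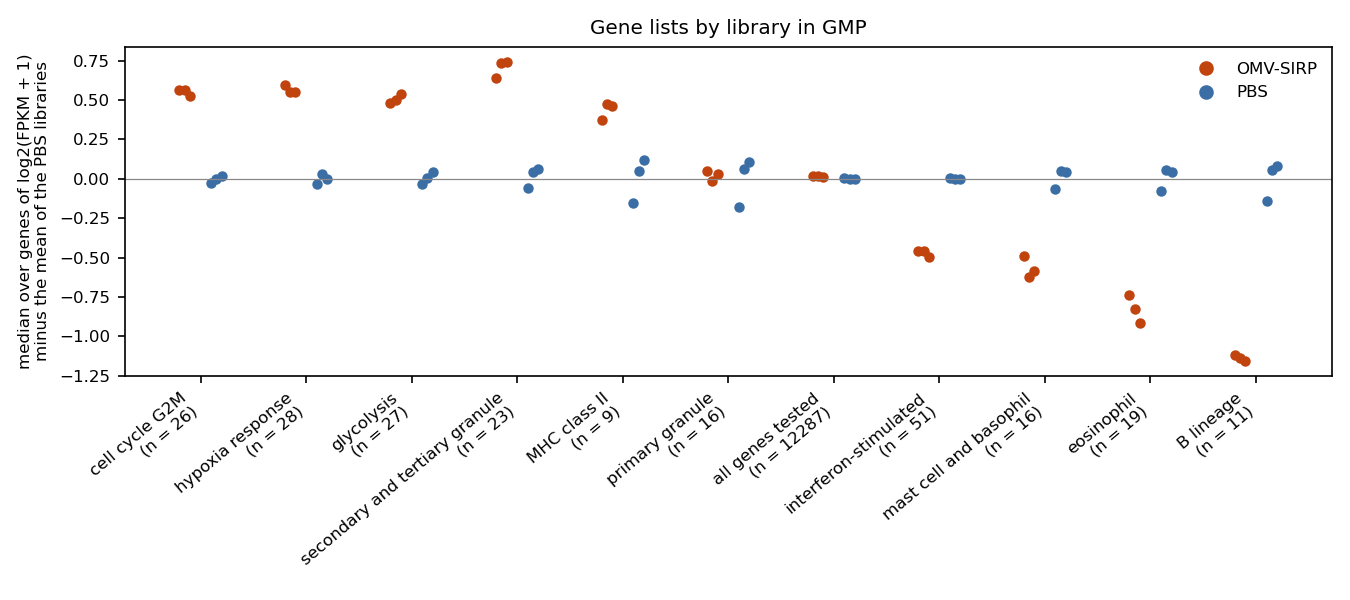
Median over the tested members of each list of log2(FPKM + 1), minus the mean of the PBS libraries, for each OMV-SIRP library (left) and PBS library (right), with the number of genes under each name. The 3 OMV-SIRP libraries lie close together in most lists, between 0.53 and 0.57 for G2M and between -0.46 and -0.50 for interferon-stimulated genes. They are more spread for eosinophil genes (-0.74 to -0.91) and for mast cell and basophil genes (-0.49 to -0.63). PBS 1 is the lowest PBS library in several lists.

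Sensors of bacteria fell more often than they rose. Of 33 genes for Toll-like receptors, lipopolysaccharide sensing and inflammasomes 2 rose and 7 fell, with a median of -0.02 (0 and 14, with a median of -0.22, under TPM). Tlr4, the receptor for lipopolysaccharide, had 5.61, 5.44 and 5.81 FPKM after OMV-SIRP, against 7.52, 7.74 and 7.23 FPKM after PBS (log2 change -0.36 ± 0.07, adjusted p = 0.00514). Tlr9, which binds bacterial DNA, fell by 0.65 ± 0.09, Tlr1 by 0.39 ± 0.06, Tlr7 by 0.24 ± 0.07 and the flagellin sensor pair Nlrc4 and Naip5 by 0.38 ± 0.07 and 0.33 ± 0.07. Cd14, the co-receptor of Tlr4, rose (log2 change 0.24 ± 0.06, adjusted p = 0.0329), as did Tlr13 (0.32 ± 0.09). The adaptor Myd88, Tlr2, Nlrp3 and Casp1 did not pass. NF-kB target genes were divided, with 6 of 32 higher and 8 lower (4 and 12 under TPM). Nfkbia, the inhibitor that NF-kB itself induces, did not pass (-0.03 ± 0.05). Sensor rises numbered 0 without OMV-SIRP 1, OMV-SIRP 2 or PBS 2 and 1 on leaving out OMV-SIRP 3 or PBS 1. NF-kB target falls numbered 4 without OMV-SIRP 1 or OMV-SIRP 3. Cd14 no longer passed without any 1 library but PBS 3 (highest adjusted p 0.11), Tlr13 without any 1 library but PBS 3 (highest adjusted p 0.117) and Tlr7 without OMV-SIRP 2, OMV-SIRP 3, PBS 2 or PBS 3 (highest adjusted p 0.14).

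Cytokine and chemokine genes moved in both directions. Il1rn, the antagonist of the interleukin 1 receptor, had 4.75, 4.53 and 4.79 FPKM after OMV-SIRP, against 2.12, 2.36 and 2.05 FPKM after PBS (log2 change 0.84 ± 0.06, adjusted p = 1.80e-05). Tnfsf13b, the B cell survival factor BAFF, had 6.54, 7.02 and 6.31 FPKM after OMV-SIRP, against 2.29, 2.89 and 2.52 FPKM after PBS (log2 change 1.10 ± 0.08, adjusted p = 2.80e-05). Both groups were apart for each gene, and 6 of 17 cytokine genes rose in all, with 4 lower (4 and 5 under TPM). The largest fall of the list was Csf1, a growth factor gene (log2 change -1.34, adjusted p = 1.63e-05). Of 12 chemokine genes 5 rose and 5 fell. The neutrophil attractant Cxcl2 (log2 change 0.75 ± 0.07, adjusted p = 8.13e-05) and Ccl5 (log2 change 0.88 ± 0.10, adjusted p = 0.00045) were higher, and Ccl3 (log2 change -0.65 ± 0.05, adjusted p = 4.49e-05) and Ccl9 (-0.37 ± 0.08) were lower. Chemokine rises numbered 3 without OMV-SIRP 1, OMV-SIRP 3 or PBS 1, and falls 2 without OMV-SIRP 3 and 3 on leaving out OMV-SIRP 1, OMV-SIRP 2, PBS 2 or PBS 3. Genes of homing and marrow exit fell in 9 of 21 cases and rose in 5 (12 and 1 under TPM). Itgal, the LFA-1 alpha chain, fell (log2 change -0.41 ± 0.05, adjusted p = 0.00064), as did Ccr2, which draws monocytes from the marrow (log2 change -0.38 ± 0.05, adjusted p = 0.00145). Cxcr4, which holds neutrophils in the marrow, did not pass (log2 change 0.18 ± 0.06, adjusted p = 0.0707), and the beta 2 integrin gene Itgb2 rose by 0.19 ± 0.05 with the opposite sign under TPM (-0.02). Homing rises numbered 3 without any 1 OMV-SIRP library. Ccl9 no longer passed without OMV-SIRP 3 or PBS 2 (highest adjusted p 0.0583) and Itgb2 without any 1 OMV-SIRP library or PBS 2 (highest adjusted p 0.109).

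The list of Sirpa, other inhibitory and paired receptors of myeloid cells, Cd47 and signalling partners held 6 rises and 3 falls among 17 genes (4 and 4 under TPM). Pilra, an inhibitory receptor gene, had 31.9, 31.4 and 32.03 FPKM after OMV-SIRP, against 16.03, 18.2 and 19.5 FPKM after PBS (log2 change 0.80 ± 0.07, adjusted p = 0.0001). Siglece, a sialic acid receptor of neutrophils, rose (log2 change 0.57 ± 0.06, adjusted p = 0.000162), and Pirb rose by 0.34 ± 0.06. Cd300a fell by 0.39 ± 0.04 and Lilr4b by 0.34 ± 0.09. Sirpa, an inhibitory receptor gene of phagocytes, had 77.5, 82.4 and 77.8 FPKM after OMV-SIRP, against 91.7, 90.1 and 91.7 FPKM after PBS, and fell (log2 change -0.20 ± 0.05, adjusted p = 0.0243). Cd47, the ligand of Sirpa, did not pass (log2 change -0.12 ± 0.04, adjusted p = 0.0884), nor did the phosphatase genes Ptpn6 and Ptpn11 (0.13 ± 0.05 and 0.01 ± 0.05). Among Fc receptors Fcgr4 rose (log2 change 0.64 ± 0.12, adjusted p = 0.00668) and Fcgr2b and the neonatal receptor Fcgrt fell by 0.19 ± 0.04 and 0.36 ± 0.09. Inhibitory receptor falls numbered 1 without OMV-SIRP 1, OMV-SIRP 3 or PBS 2. Fc receptor falls numbered 1 without any 1 OMV-SIRP library or PBS 2. Sirpa no longer passed without OMV-SIRP 1, OMV-SIRP 3, PBS 2 or PBS 3 (highest adjusted p 0.0891), Fcgr2b without OMV-SIRP 3 (adjusted p = 0.0556), Fcgrt without OMV-SIRP 1, OMV-SIRP 2, PBS 1 or PBS 2 (highest adjusted p 0.0878) and Lilr4b without any 1 library but PBS 3 (highest adjusted p 0.114).

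Stress and metabolic genes gave smaller groups of calls. Of 29 heat shock and immediate-early genes 9 rose and 3 fell, with a median of 0.06 (2 and 8 under TPM). The inducible chaperone genes Hspa1a and Hspa1b, near-identical copies whose split is uncertain, were covered by 455 and 858 reads over the 3 OMV-SIRP libraries, against 22 and 91 reads over the PBS libraries (log2 change 1.78 ± 0.08, adjusted p = 2.50e-06 and log2 change 2.08 ± 0.08, adjusted p = 1.12e-06). The constitutive Hspa8 and Hsp90ab1 did not pass (0.28 ± 0.09 and -0.03 ± 0.06). In the list of iron handling and the antioxidant factor NRF2, 2 of 20 genes rose and 5 fell, with a median of -0.06 (1 and 10 under TPM). Of genes under NRF2, the cystine transporter Slc7a11 fell to 1.10 ± 0.0995 FPKM after OMV-SIRP, against 3.34 ± 0.0488 FPKM after PBS (log2 change -1.05 ± 0.07, adjusted p = 1.52e-05). Nqo1 fell too (log2 change -0.91 ± 0.07, adjusted p = 5.38e-05), with Gclc, which starts glutathione synthesis (-0.48 ± 0.06). Hmox1, the haem oxygenase gene often counted with them, rose (log2 change 0.45 ± 0.06, adjusted p = 0.000711). Of 23 cathepsin and lysosome genes 5 rose and 2 fell, with a median of 0.02 (3 and 10 under TPM). The cysteine protease genes Ctsk and Ctsf rose by 1.13 ± 0.07 and 0.56 ± 0.10, and the aspartic protease gene Ctsd fell by 0.33 ± 0.07. Of 22 cholesterol synthesis genes Mvd and Pmvk rose and none fell. Of 11 genes of arginine use 5 rose and 1 fell (3 and 3 under TPM). Arg1, the cytosolic arginase, was covered by 128, 112 and 149 reads after OMV-SIRP, against 10, 4 and 7 reads after PBS (log2 change 1.88 ± 0.11, adjusted p = 8.69e-06). Nos2, the inducible nitric oxide synthase, had 2.25, 2.18 and 2.39 FPKM after OMV-SIRP, against 0.495, 0.513 and 0.624 FPKM after PBS (log2 change 1.09 ± 0.08, adjusted p = 3.23e-05). Neither gene overlapped between groups. Arg2, the mitochondrial arginase, rose (log2 change 0.50 ± 0.11, adjusted p = 0.0121), and Odc1, which makes polyamines from ornithine, did not pass (-0.12 ± 0.05). Neat1, a nuclear RNA of paraspeckles, rose (log2 change 0.79 ± 0.13, adjusted p = 0.00432), and Malat1 did not pass (0.10 ± 0.18). Arginine list falls numbered 0 without any 1 library but PBS 3. Heat shock list rises numbered 4 without any 1 OMV-SIRP library or PBS 2. Iron and NRF2 list rises numbered 4 without PBS 3. Cathepsin list rises numbered 3 without any 1 OMV-SIRP library, and falls 1 without OMV-SIRP 2 or OMV-SIRP 3 and 5 on leaving out PBS 1. Cholesterol synthesis rises numbered 1 without OMV-SIRP 2, OMV-SIRP 3, PBS 1 or PBS 2. Ctsd no longer passed without OMV-SIRP 2 or OMV-SIRP 3 (highest adjusted p 0.0565) and Pmvk without OMV-SIRP 2, OMV-SIRP 3, PBS 1 or PBS 2 (highest adjusted p 0.0952).

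Some of the 25 largest rises and 25 largest falls at a mean of at least 5 FPKM belonged to none of these groups. Cdh1, the E-cadherin gene, had 4.68, 5.40 and 4.99 FPKM after OMV-SIRP, against 12.5, 12.3 and 12.5 FPKM after PBS (log2 change -1.16 ± 0.05, adjusted p = 2.40e-06). P2rx1, an ion channel opened by extracellular ATP, had 12.96, 11.9 and 12.6 FPKM after OMV-SIRP, against 28.2, 29.3 and 29.3 FPKM after PBS (log2 change -1.15 ± 0.05, adjusted p = 1.32e-06). Perp (-1.03 ± 0.08), the steroid-forming enzyme Cyp11a1 (-1.02 ± 0.06) and Padi2 (-0.91 ± 0.07), which turns arginine residues into citrulline, were also among these falls. Hcar2, the receptor of nicotinic acid and beta-hydroxybutyrate, had 26.2, 26.2 and 23.7 FPKM after OMV-SIRP, against 10.04, 11.1 and 10.02 FPKM after PBS (log2 change 1.21 ± 0.06, adjusted p = 2.68e-06). Mgl2, a lectin gene, had 40.6, 43.96 and 45.3 FPKM after OMV-SIRP and 17.5, 17.9 and 20.4 FPKM after PBS (log2 change 1.18 ± 0.06, adjusted p = 5.49e-06). Cd300c2 and Cib2 rose by 1.15 ± 0.09 and 1.07 ± 0.17.

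In a direct comparison with GMP after OMV-SIRP-G, a difference in which no PBS value enters although PBS libraries share in the estimate of spread and in the filter, 14.8% of genes differed, 8.12% higher and 6.7% lower in OMV-SIRP GMP. All 26 G2 and M phase genes were higher in OMV-SIRP GMP (median 0.48), with 22 of 28 hypoxia genes higher and 1 lower (0.50), 19 of 27 glycolysis genes higher (0.47) and 16 of 22 cholesterol synthesis genes higher (0.33). Of the later granule genes 16 of 23 were higher and 5 lower (0.42), while the mature neutrophil genes were divided, 8 higher and 8 lower (-0.11). Lower in OMV-SIRP GMP were 22 of 29 heat shock and immediate-early genes (-0.44), 13 of 19 eosinophil genes (-0.41), 11 of 16 mast cell and basophil genes (-0.37) and 9 of 12 chemokine genes (-0.63). Lipg, a lipase gene of vessel walls, showed the largest difference upward among named genes, at 6.91 ± 0.537 FPKM after OMV-SIRP and 0.626 ± 0.105 FPKM after OMV-SIRP-G (difference 2.28 ± 0.08, adjusted p = 1.26e-06), with 5.14 ± 0.448 FPKM after PBS. Ccl4 was at 14.4 ± 1.82 FPKM after OMV-SIRP and 30.8 ± 4.69 FPKM after OMV-SIRP-G (difference -1.04 ± 0.12, adjusted p = 0.00081). Egr1 stood at 49.7 ± 1.70 FPKM after OMV-SIRP and 107 ± 3.36 FPKM after OMV-SIRP-G (difference -1.09 ± 0.11, adjusted p = 0.000347), with 38.7 ± 7.21 FPKM after PBS.

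The change with OMV-SIRP also differed between GMP and monocytes, tested as an interaction over 18 libraries, in 17.1% of 13337 genes, with GMP above in 10.3% and below in 6.84%. The G2 and M phase genes had a median change of 0.55 in GMP and -0.39 in monocytes, and the interaction passed for 21 of 26, all with GMP above. Hypoxia genes had medians of 0.57 in GMP and -0.49 in monocytes, with GMP above for 21 of 28 and below for 1. Interferon-stimulated genes had negative medians in both populations, -0.44 in GMP and -0.97 in monocytes, and the interaction passed for 26 genes, all with GMP above. Primary granule genes had medians of 0.02 in GMP and -0.93 in monocytes, with GMP above for 8 of 16. In monocytes PBS 2 stood apart with high granule transcripts, and without it 29.9% of genes passed, 17.8% with GMP above and 12.1% below. In that fit GMP was above for 9 primary granule genes and below for 2, for 26 G2 and M phase genes and for 38 interferon-stimulated genes, with 1 below.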

How the data were processed

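The authors deposited FPKM in 1 table of 56026 gene models for GMP and monocytes; the other tables of the series were not used. Build GRCm38 and HISAT2 2.0.5, featureCounts 1.5.0-p3 and StringTie are named, without roles, per the submitters' processing notes. No source used here states their settings or whether counting used strand. FPKM times gene length gave whole reads in 100% of values (tolerance 0.05 reads), from which depth was recovered. The deposited FPKM already carried a scaling between libraries, of 1.04 to 1.15 times the value at total reads in the 6 libraries compared.

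Log2(FPKM + 1) was tested with limma 3.58.1 (statmod 1.5.0, R 4.3.3; lmFit, eBayes with trend and robust) over the 9 GMP libraries, for the 12287 genes that reached 1 FPKM in 3 or more of them. P-values were adjusted by Benjamini-Hochberg over all genes, at 0.05. Fold changes on this scale understate low genes. The interaction with monocytes was fitted over 18 libraries. The code was tested on simulated data. Promoter windows are from RefSeq (GRCm38.p6). Figures were drawn with matplotlib 3.10.9.

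Genes were named by a rule: the 25 largest rises and 25 largest falls among called protein-coding genes with a mean of at least 5 FPKM and no overlap, all tested members of 10 lists, of every other list up to 4 with the lowest adjusted p and the 3 most abundant, and 10 each way in both further contrasts. Hp, Itgam, Fcnb, Olfm4, B4galt6, Cd63, Cd177 and Pglyrp1 were added after their values were seen. Members and lists were chosen with earlier results of these data known; a list is described by counts and its median, without a test. The alternatives were other scalings, pseudocount and filters, limma voom, a fold minimum, a replicate block, the 2 groups alone and leaving out each library. TPM here were computed from the deposited FPKM.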

Additional observations from a re-analysis of the deposited data

Results flagged for a closer look

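The response to OMV-SIRP differed between GMP and monocytes for the genes below, tested as an interaction in limma over 18 libraries. They are the 10 largest differences in each direction among protein-coding genes with a mean of at least 5 FPKM that passed in GMP and in the interaction. Values are the change in GMP minus the change in monocytes (log2 ± SE). All 20 passed without monocyte PBS 2, the library of that group that stood apart.

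GMP lay above monocytes for the neutrophil and monocyte secreted genes Retnlg (2.82 ± 0.39, adjusted p = 0.000205) and Chil3 (2.37 ± 0.19). Chil3 changed by 1.00 in GMP and by -1.37 in monocytes. Slfn1 (2.53 ± 0.19), a Schlafen family gene, and the receptor genes Hcar2 (2.23 ± 0.12), Il1r2 (2.18 ± 0.24) and Acvrl1 (2.01 ± 0.14) were above as well. The oxygen- and stress-responsive genes Ddit4 (2.41 ± 0.13), Selenbp1 (2.07 ± 0.24), Hmox1 (2.05 ± 0.14) and Hilpda (2.02 ± 0.23) completed this side. Hmox1 changed by 0.45 in GMP and by -1.60 in monocytes.

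GMP lay below monocytes for the immediate-early gene Fos (-1.72 ± 0.11, adjusted p = 2.70e-07), which changed by -0.32 in GMP and by 1.40 in monocytes. The receptor chain Csf2rb2 (-1.45 ± 0.22), the integrin Itgal (-1.28 ± 0.21), the guidance receptor Plxnd1 (-1.32 ± 0.28) and the amino acid carrier Slc7a8 (-1.23 ± 0.21) were also below. Serpinb2 (-1.39 ± 0.14), the small GTPase Rhob (-1.25 ± 0.13), Rnf144b (-1.22 ± 0.15), A430078G23Rik (-1.20 ± 0.32) and Alox15 (-1.19 ± 0.15) made up the rest. In GMP alone, Plxnd1 no longer passed without any 1 OMV-SIRP library (highest adjusted p 0.102) and Rhob without OMV-SIRP 1 or OMV-SIRP 2 (highest adjusted p 0.0879).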

How the results depend on the processing

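The count of 2232 genes past the threshold, 1308 higher and 924 lower, was set against 15 other settings. It was 3075 (479 higher, 2596 lower) with TPM, 2643 (820 and 1823) with scaling to total reads, which moved the median of all genes to -0.07, and 418 (267 and 151) when a change of at least 1.2-fold was required. It was 1631 (1051 and 580) among genes with a mean of at least 5 FPKM, 1587 with the 2 groups fitted alone, 1624 with no filter, 2773 with limma voom on recovered reads and, by coincidence, again 2232 with a pseudocount of 0.1, of which 2211 were shared. Leaving out each library gave 1394 to 2165 calls, 845 to 1340 higher and 529 to 831 lower. The OMV-SIRP libraries weighed most: without OMV-SIRP 1, 2 and 3 the lower calls were 603, 549 and 529, and without OMV-SIRP 2 or 3 all calls were 1394 or 1415. In all 6 such fits 1171 genes were called.

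Of 483 named genes 306 passed, 247 of them in every fit that left out 1 library. The sign reversed in 7 genes, all under TPM, in which Bhlhe40 was at -0.0249, Lyl1 at -0.0188, Itgb2 at -0.0163, Gatm at -0.00327, Mdh2 at -0.0110, Ier2 at -0.00116 and Hspa5 at -0.0322. TPM shared 1401 calls of the same sign with the deposited FPKM, total reads 1744 and voom 2125.

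With replicate number as a block 1970 genes passed (1175 higher, 795 lower), 1837 of them shared. Whether the numbers pair the samples was not tested. Deviations of same-numbered OMV-SIRP and PBS libraries correlated at 0.18, -0.02 and 0.22, and those of different-numbered ones at -0.22 to 0.02. Depth limits the lymphoid and erythroid genes most, where 3 reads over a 1 kb gene amount to 0.146 to 0.189 FPKM.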

Other observations

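A pair of non-coding genes and a pair of immunoglobulin segments also passed in GMP, and they are named here with their values known. Rn7sk, the small nuclear RNA 7SK, was covered by 288, 258 and 286 reads after OMV-SIRP, against 9, 38 and 45 reads after PBS. Gm26917, a long non-coding gene model, was covered by 7979, 6132 and 6298 reads after OMV-SIRP and 913, 1248 and 1160 reads after PBS. The immunoglobulin joining segments Igkj3 and Igkj4 had 0 reads each in the 3 OMV-SIRP libraries and 11 reads each over the 3 PBS libraries.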
